A study of Mus musculus with 6 samples.

Results

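The genes that write, maintain and erase DNA methylation were followed in bone marrow cells of mice that carried MLL-AF9 leukemia. The 9 genes, Dnmt1, Uhrf1, Dnmt3a, Dnmt3b, Tet1, Tet2, Tet3, Idh1 and Idh2, were picked by name and matched by their Ensembl identifiers to the symbols of the 55487 genes in the table of normalized counts. All 9 averaged 10 or more normalized counts across libraries and were among the 15020 genes tested. Tet1 reached that mean only through the libraries labelled pIpC, at a mean of 385.6 there and 1.78 in PBS. The libraries fell into a group of 3 labelled PBS and a group of 3 labelled pIpC, and the comparison asked how the transcriptome of the leukemia changed when Brd9 was to be deleted after transplant. Tet1 was close to absent in the PBS libraries and present in every library labelled pIpC, Idh1 was lower in the libraries labelled pIpC, and the 4 writers did not pass the test. Tet2 passed, as lower in the libraries labelled pIpC, when PBS replicate 3 was left out.

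Methyl groups on the cytosines of CpG dinucleotides are laid down by the de novo enzymes DNMT3A and DNMT3B. They are copied to the new strand after replication by DNMT1, which UHRF1 brings to hemimethylated CpG sites. The TET enzymes remove the mark by oxidising 5-methylcytosine in steps, with oxygen, iron and 2-oxoglutarate. IDH1 in the cytosol and IDH2 in mitochondria make that 2-oxoglutarate from isocitrate, and their mutant forms make 2-hydroxyglutarate, which inhibits the TET enzymes. DNMT3A, TET2, IDH1 and IDH2 are among the genes most often mutated in human acute myeloid leukemia. RNA levels, as measured here, say nothing of enzyme activity or of DNA methylation itself.

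Both groups came from C57BL/6 donor cells that were CD45.2(+) and carried Mx1-Cre, homozygous floxed Brd9 (Brd9fl/fl) and MLL-AF9, a fusion oncogene. Of these cells, 1000 were transplanted into CD45.1(+) CD45.2(-) recipients. From the following day the recipients were given 3 injections, every other day, of PBS or of pIpC at 20 mg/kg, and cells were taken 10 days after injection. pIpC mimics double-stranded RNA and so raises interferon, and the Mx1 promoter drives Cre in cells that respond to interferon. The pIpC group thus differed from PBS by interferon induction as well as by Cre, and these cannot be told apart in this design. By the labels the cells were GFP+, the libraries were unstranded and the irradiation was lethal (2 fractions, each of 450 cGy), whereas the methods of the study describe c-Kit+ cells, stranded libraries and a sublethal dose for this experiment. The recipients were 6 weeks old. The labels number the samples without saying whether each came from its own recipient, so the p-values measure the spread between these samples, which may be technical.

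The reads counted on genes ranged from 19277439 to 23586722 per library. Brd9, the targeted gene, was counted at 1927, 1946 and 1632 in the PBS libraries and at 2036, 2263 and 2011 where the label was pIpC. Its log2 fold change was 0.20 (limma, adjusted p = 0.259). Its count over the whole gene was therefore not lower where its deletion was labelled, and directions are given here by the label. By the paper, Cre excises only the exons that code for the bromodomain. Reads over those exons were not counted apart, so their loss was not measured here. PBS replicate 3 stood apart from the other PBS libraries, with a chi-square statistic per gene of 193.92 against PBS replicate 1, compared with 6.3 between PBS replicates 1 and 2. Its counts fell with transcript length, and values without it are given for the 9 genes and, in the gene lists, where they changed a call, a direction or a count of calls. Markers of neutrophils, erythroid cells and lymphocytes also differed between the groups, with values given beside Tet1. In bulk RNA, fewer cells of a type and less RNA per cell cannot be told apart. Of 7 hematopoietic markers (Ptprc, Spi1, Runx1, Cd44, Kit, Itgam and Lyz2) none was at 0 in either group, and GFP was not analysed here.

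The promoters of the TET genes are shown because these genes, all on the minus strand, differed most among themselves. Each run below is the 250 bases before the RefSeq start on GRCm38.p6, written 5′ to 3′ on the strand of the gene, with each CpG dinucleotide in capitals, the site on which DNMT and TET enzymes act.
Tet1, chr10:62887325-62887574: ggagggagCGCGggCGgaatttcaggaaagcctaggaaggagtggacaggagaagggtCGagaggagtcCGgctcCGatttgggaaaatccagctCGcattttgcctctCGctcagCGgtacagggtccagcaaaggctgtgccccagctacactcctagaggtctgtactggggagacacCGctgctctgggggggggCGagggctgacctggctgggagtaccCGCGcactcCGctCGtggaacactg
Tet2, chr3:133544391-133544640: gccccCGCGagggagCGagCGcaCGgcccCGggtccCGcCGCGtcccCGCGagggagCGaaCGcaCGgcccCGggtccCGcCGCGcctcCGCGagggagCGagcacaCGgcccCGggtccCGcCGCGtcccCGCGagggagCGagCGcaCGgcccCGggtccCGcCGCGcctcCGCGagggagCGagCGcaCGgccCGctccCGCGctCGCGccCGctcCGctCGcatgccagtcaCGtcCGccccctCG
Tet3, chr6:83441679-83441928: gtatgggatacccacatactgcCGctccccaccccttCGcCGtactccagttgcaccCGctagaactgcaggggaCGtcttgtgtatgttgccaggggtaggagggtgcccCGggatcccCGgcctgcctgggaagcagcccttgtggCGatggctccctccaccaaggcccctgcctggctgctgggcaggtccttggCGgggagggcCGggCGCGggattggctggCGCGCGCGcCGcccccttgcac
The Tet1 run held 15 CpG dinucleotides, a number that 27.3% of 32817 promoters of this length reached. The Tet2 run held 51, which 0.067% reached, and the Tet3 run 17, which 23.5% reached, where the median promoter held 6. The motif GGGCGG, searched on both strands, was found 1 time in each of the 3 runs, and 32.7% of all promoters held it. Promoters of all 9 genes were matched by symbol. These letters describe the windows, and methylation was not measured in these libraries. The windows of Tet1 and Tet3 lie inside the genes as GENCODE draws them, which reach to 62908996 and 83459084, and so does that of Tet2, whose gene reaches to 133545139, so other starts of these genes have windows that were not printed.

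Across all genes tested, 6808 of 15020 (45.3%) passed an adjusted p under 0.1 in limma on log2(normalized count + 1), 25.0% as higher and 20.4% as lower in the libraries labelled pIpC. Of the 9 genes, 2 passed, Tet1 as higher and Idh1 as lower. Without PBS replicate 3, 65.1% of all genes and 3 of the 9 passed, with Tet2 added as lower. The values of the groups did not overlap in 3 of the 9 (Dnmt3a, Tet1 and Idh1), compared with 56.8% of all genes. The median log2 fold change was 0.18 over the 9 genes and 0.015 over all genes tested. The share of the 9 genes that passed was thus below the share of all genes in both fits.

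**Figure D1:**
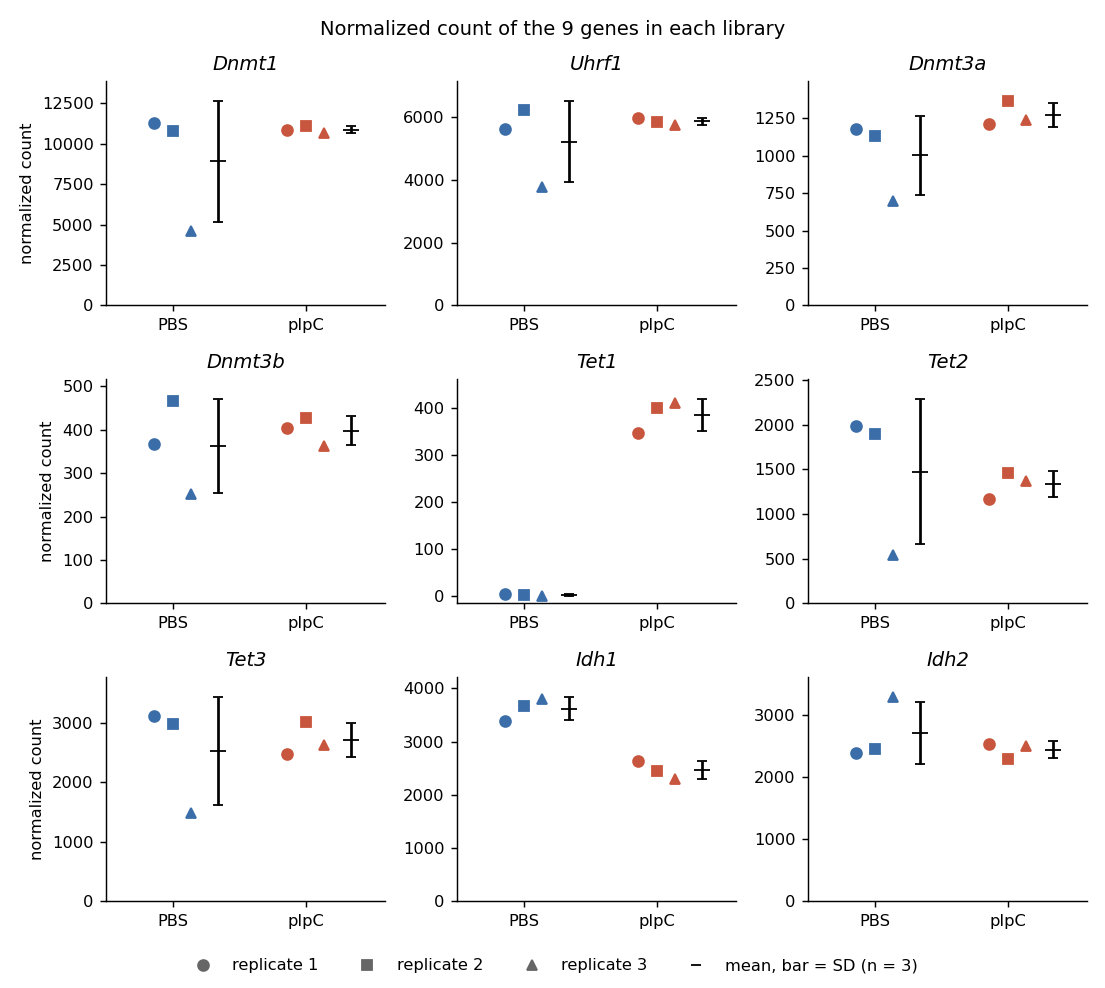
Normalized count (vertical axis, linear, a scale of its own in each panel) of the 9 genes in each of the 3 PBS (blue) and 3 pIpC (red) libraries, with mean and SD as black bars. Tet1 lay between 0 and 4.33 in PBS and between 346.3 and 411.0 in the libraries labelled pIpC, and PBS replicate 3 (triangle) was the lowest library for Dnmt1, Uhrf1, Dnmt3a, Dnmt3b, Tet2 and Tet3.

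Among the maintenance writers, Dnmt1 (ENSMUSG00000004099, chromosome 9 of GRCm38, 20907209 to 20959888) was the most counted of the 9 genes. Its normalized counts were 11290, 10808 and 4629 in PBS (replicates 1 to 3 in order) and 10842, 11116 and 10658 in the libraries labelled pIpC. The libraries labelled pIpC lay close to PBS replicates 1 and 2, and only PBS replicate 3 was low, at 41.9% of the mean of the other PBS libraries. The means were 8909 ± 3715 and 10872 ± 230.3 (SD, n = 3), with a log2 fold change of 0.40 (95% interval -0.42 to 1.21, limma adjusted p = 0.399). Without PBS replicate 3 the log2 fold change was -0.02, with an interval of -0.16 to 0.12 (limma adjusted p = 0.771).

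Uhrf1 (ENSMUSG00000001228, chromosome 17, 56303321 to 56323486), whose protein recognises hemimethylated CpG sites and recruits DNMT1, had normalized counts of 5616, 6228 and 3765 in PBS and 5972, 5837 and 5745 in the libraries labelled pIpC. All 3 of these lay between PBS replicates 1 and 2. The log2 fold change was 0.20 (SE 0.20, limma adjusted p = 0.462), and -0.02 with an interval of -0.17 to 0.14 without PBS replicate 3. The log2 ratio of Dnmt1 to Uhrf1 per exon length was 0.21, 0.00 and -0.49 in PBS (replicates 1 to 3 in order) and 0.07, 0.14 and 0.10 in the libraries labelled pIpC, which lay inside the PBS range.

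Both maintenance genes are also known to be transcribed with S phase. Of 16 S phase and proliferation genes, all tested, 5 were higher and 4 lower past the threshold, where 45.3% of all genes passed. Their median log2 fold change was -0.25, and 6 of the 16 were above 0. With PBS replicate 3 left out, 6 were higher and 7 lower, where 65.1% of all genes passed. Rrm2, a subunit of ribonucleotide reductase, rose by 1.29 and Mki67 by 0.98 on the log2 scale, while E2f1, a transcription factor of the S phase program, fell by 0.62. Mcm2 to Mcm7 were all lower in the libraries labelled pIpC, with groups that did not overlap, and Mcm2, Mcm3 and Mcm6 passed. The summed normalized count of the 16 genes ranged from 93356 to 101333 in PBS and from 109068 to 112977 in the libraries labelled pIpC. Mki67 (means of 15334 in PBS and 28960 in the libraries labelled pIpC) and Top2a (12636 and 20346) made up much of it. The part of these genes in the levels of Dnmt1 and Uhrf1 was not tested.

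Of the de novo writers, Dnmt3a (ENSMUSG00000020661, chromosome 12, 3806007 to 3914443) had normalized counts of 1178, 1132 and 699.4 in PBS and 1211, 1361 and 1239 in the libraries labelled pIpC. Every library labelled pIpC was above every PBS library, although the gap between the nearest libraries, 1178 and 1211, was smaller than the spread within either group (exact permutation test, 2-sided p = 0.1, the smallest that 3 libraries against 3 allow). The log2 fold change was 0.38 (SE 0.22, limma adjusted p = 0.218), and 0.14 without PBS replicate 3 (interval -0.04 to 0.31, limma adjusted p = 0.168).

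Dnmt3b (ENSMUSG00000027478, chromosome 2, 153649450 to 153687730) was the lower counted of the pair, at 366.8, 467.6 and 251.2 in PBS and 405.2, 427.1 and 362.6 in the libraries labelled pIpC. The groups overlapped, and the log2 fold change was 0.18 (SE 0.24, limma adjusted p = 0.587). Per exon length the genes were close to each other, with a log2 ratio of Dnmt3a to Dnmt3b of -0.23 ± 0.20 in PBS and -0.03 ± 0.10 in the libraries labelled pIpC (SD, n = 3). Their order depended on the length used: with the longest transcript in place of the exon union, Dnmt3a was above Dnmt3b, at 10.6 against 8.6 TPM in PBS and 10.9 against 7.68 TPM in the libraries labelled pIpC. Antisense genes lie over both, Dnmt3aos and Dnmt3bos, whose mean count was below 1 in each group, and in unstranded libraries reads of an antisense gene cannot be told apart from those of its partner.

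Tet1 (ENSMUSG00000047146, chromosome 10, 62804570 to 62908996) showed the largest difference of the 9 genes. Its protein has a CXXC domain that binds CpG-rich DNA, as does that of Tet3 in its long form. The normalized counts were 4.33, 1.01 and 0 in PBS replicates 1, 2 and 3, which stood for 5, 1 and 0 reads, and 346.3, 399.5 and 411.0 in the libraries labelled pIpC, which stood for 347, 391 and 425 reads. The groups were far apart, and the range within the libraries labelled pIpC was small against the gap. Over the groups, 6 reads against 1163, scaled by the summed size factors of each group, gave a ratio of 194.6 (exact 95% interval 89.2 to 531.5, for counting error only). The ratio of the mean normalized counts was 216.7. The log2 fold change was 7.45 (SE 0.59, limma adjusted p = 0.000153) and was 6.88 without PBS replicate 3 (limma adjusted p = 1.13e-06), where a pseudocount of 1 understates the change of so low a gene. In PBS replicate 3, where no read was counted, 3 reads would have been a normalized count of 3.39. The exact permutation test gave its smallest value, p = 0.1 (2-sided).

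Markers of other cell types moved with Tet1. The counts of the lists below are of genes past the threshold. Of all genes tested, 25.0% passed as higher and 20.4% as lower. All 15 erythroid markers were higher under the pIpC label, with a summed normalized count of 26.0 to 39.6 in PBS and 7459 to 10511 in the libraries labelled pIpC, and Slc4a1, Rhag and Trim10 were at 0 in every PBS library. All 15 B cell markers were higher, from sums of 151.8 to 314.6 up to 2128 to 3470, with Ms4a1 at 0 in PBS, and so were all 8 of the 11 T and NK cell markers that were tested. The sum over all 11 went from 215.6 to 345.2 up to 4166 to 4794, most of it from Nkg7, which alone was at 3702 to 4312 in the libraries labelled pIpC. Of 15 neutrophil markers 14 were higher, from sums of 78193 to 161353 up to 2246892 to 2332988. Of 10 macrophage markers 6 were higher (C1qa, C1qb, C1qc, Mrc1, Cd163 and Siglec1) and 3 lower. Their sum was lower, 8559 to 10186 against 12661 to 16809 in PBS. Much of that sum came from Vcam1 (means of 8421 in PBS and 4444 under the pIpC label) and Adgre1 (4307 and 309.5), which both fell. Of 10 MLL-AF9 leukemia genes, 8 were lower, such as Hoxa9 and Meis1, and 2 were higher. The 2 were Mef2c (means of 5.53 in PBS and 1086 under the pIpC label) and Mecom (0.288 and 39.9). The list had sums of 18526 to 23632 in PBS and 4502 to 5310 in the libraries labelled pIpC. The part of these cell types in the level of Tet1 was not tested.

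By the smallest root-mean-square difference of centred log2 values over the 6 libraries, among 10486 genes with a mean count of at least 100, the genes most like Tet1 were Hemgn (0.345), Satb1 (0.368) and Hbb-bt (0.462). Hemgn encodes a nuclear protein of hematopoietic cells, Satb1 a chromatin organiser best known in lymphoid cells, and Hbb-bt an adult beta globin. Their log2 fold changes were 7.29, 7.84 and 7.91. These genes were chosen by likeness to Tet1 in these same values, so the size of their changes follows from the choice. So do their low means in PBS, 1.54, 6.91 and 1.54.

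Tet2 (ENSMUSG00000040943, chromosome 3, 133463679 to 133545139), the TET gene most often mutated in myeloid disease, had normalized counts of 1989, 1896 and 545.5 in PBS and 1173, 1466 and 1369 in the libraries labelled pIpC. PBS replicates 1 and 2 were above all libraries labelled pIpC, and PBS replicate 3 was below all of them, at 28.1% of the mean of the other PBS libraries. With all libraries the log2 fold change was 0.06 with an interval of -1.09 to 1.22 (limma adjusted p = 0.929). Without PBS replicate 3 it was -0.55 with an interval of -0.77 to -0.32 (limma adjusted p = 0.0013), a mean in the libraries labelled pIpC of 68.8% of that in PBS. The direction of Tet2 and its call thus turned on 1 library.

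Tet3 (ENSMUSG00000034832, chromosome 6, 83362373 to 83459084) was the most counted TET gene in every library, at 3120, 2974 and 1490 in PBS and 2478, 3023 and 2629 in the libraries labelled pIpC. The groups overlapped with and without PBS replicate 3. The log2 fold change was 0.17 (SE 0.29, limma adjusted p = 0.671), and -0.17 without PBS replicate 3 (interval -0.38 to 0.03, limma adjusted p = 0.124). When each library's trend with transcript length was removed, Tet3 passed as lower, at -0.28 (limma adjusted p = 0.0199).

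To compare the TET genes with each other, reads were divided by exon length and scaled to a fixed total per library (the TPM scale). Tet1 made up 0.0917%, 0.0225% and 0% of the TET sum in PBS (replicates 1 to 3 in order) and 9.32%, 8.80% and 10.0% in the libraries labelled pIpC. Tet3 held the largest share in every library, between 59.4% and 73.4%. The share of Tet2 was 38.6%, 38.7% and 26.6% in PBS and 28.9%, 29.6% and 30.6% in the libraries labelled pIpC, so that PBS replicates 1 and 2 were above the latter and PBS replicate 3 below. Even where Tet1 was present, it was the least of the 3, at 2.54 ± 0.302 TPM against 8.06 ± 1.18 for Tet2 and 16.5 ± 2.28 for Tet3 (SD, n = 3).

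**Figure D2:**
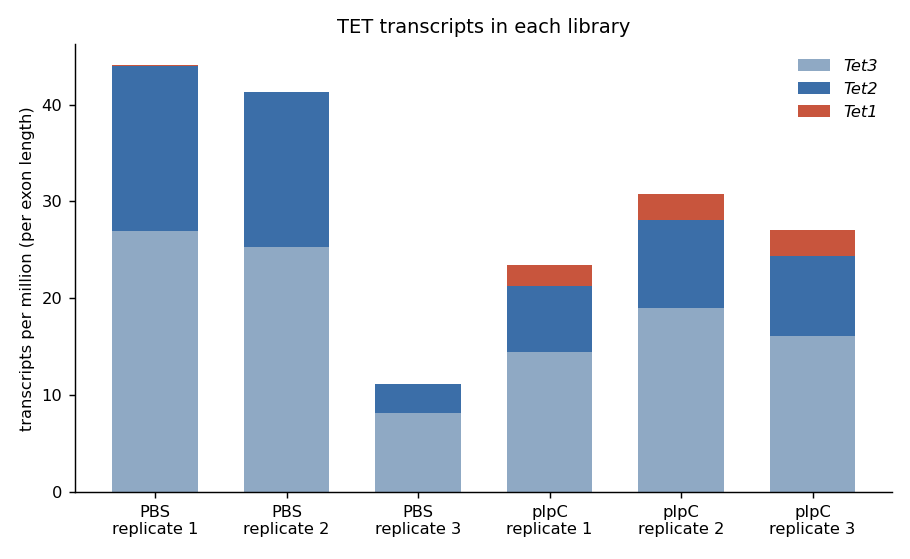
TPM per exon length (vertical axis, from 0) of Tet3, Tet2 and Tet1, stacked, in each library with no error drawn. Tet1 is visible only in the libraries labelled pIpC, where it was 9.32%, 8.80% and 10.0% of the sum, and the sum was lowest in PBS replicate 3, at 11.2 TPM. Bar heights are not to be compared between the groups, since the median TPM change of all genes tested was itself -0.34 on the log2 scale.

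Idh1 (ENSMUSG00000025950, chromosome 1, 65158616 to 65186500), the cytosolic isocitrate dehydrogenase, was lower in the libraries labelled pIpC. Its normalized counts were 3385, 3670 and 3800 in PBS and 2636, 2446 and 2300 in the libraries labelled pIpC. The groups did not overlap, and PBS replicate 3 was close to the other PBS libraries, at 107.7% of their mean. The means were 3618 ± 212.5 and 2461 ± 168.2 (SD, n = 3), a log2 fold change of -0.56 (SE 0.12, limma adjusted p = 0.01). It was -0.52 without PBS replicate 3 (limma adjusted p = 0.00043) and -0.41 with the length trend removed (limma adjusted p = 0.0133). The genes most like Idh1 over the 6 libraries were Bcap29 (0.029), Ube2q2 (0.033) and Pum3 (0.035). Their log2 fold changes, -0.60, -0.55 and -0.60, are near that of Idh1 by the way they were chosen. Bcap29 encodes a membrane protein of the endoplasmic reticulum, Ube2q2 a ubiquitin-conjugating enzyme and Pum3 an RNA-binding protein.

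Idh2 (ENSMUSG00000030541, chromosome 7, 80094846 to 80115392), the mitochondrial enzyme, had normalized counts of 2388, 2455 and 3285 in PBS and 2531, 2290 and 2507 in the libraries labelled pIpC. Only PBS replicate 3 was high, at 135.7% of the mean of the other PBS libraries. The log2 fold change was -0.14 (SE 0.16, limma adjusted p = 0.526), and 0.01 with an interval of -0.15 to 0.17 without PBS replicate 3. The log2 ratio of Idh1 to Idh2 per exon length was 0.40, 0.48 and 0.11 in PBS and -0.04, -0.00 and -0.22 in the libraries labelled pIpC. All 3 PBS libraries lay above the others in this ratio, and the mean fell by 0.42 on the log2 scale.

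Ordered by TPM within PBS replicates 1 and 2, the 9 genes fell into sets. Dnmt1 (means of 214.5 TPM over these libraries), Uhrf1 (199.0), Idh1 (182.2) and Idh2 (134.0) were highest, followed by Tet3 (26.1), Tet2 (16.5), Dnmt3b (11.7) and Dnmt3a (9.94), with Tet1 (0.0248) last. Dnmt1 and Uhrf1 were 208.2 and 207.8 TPM in PBS replicate 2, and Dnmt3b and Dnmt3a 10.4 and 10.2 in PBS replicate 1, so that neither pair was apart in every library. In the libraries labelled pIpC the order was Dnmt1 (149.6 ± 7.48), Uhrf1 (139.3 ± 3.71), Idh2 (95.7 ± 3.06), Idh1 (90.0 ± 4.62), Tet3 (16.5 ± 2.28), Tet2 (8.06 ± 1.18), Dnmt3b (7.92 ± 0.775), Dnmt3a (7.75 ± 0.748) and Tet1 (2.54 ± 0.302), all SD with n = 3. There the ranges overlapped for Dnmt1 and Uhrf1, for Idh2 and Idh1, and for Tet2, Dnmt3b and Dnmt3a. With the length of the longest transcript, the ranges of Dnmt1 and Uhrf1 and of Idh2 and Idh1 no longer overlapped in these libraries, Dnmt3a (10.0 to 12.1 TPM) was above Dnmt3b (7.03 to 8.49 TPM), and Tet2 (10.2 to 13.7 TPM) overlapped only Dnmt3a. The order Tet3, Tet2, Tet1 was the same with both lengths in every library. On the TPM scale 8 of the 9 genes had a lower mean in the libraries labelled pIpC, all but Tet1, but the median of all genes tested was itself shifted by -0.34 on the log2 scale. TPM was therefore used to compare genes within libraries, and differences in TPM sums between the groups are not read as changes.

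**Figure D3:**
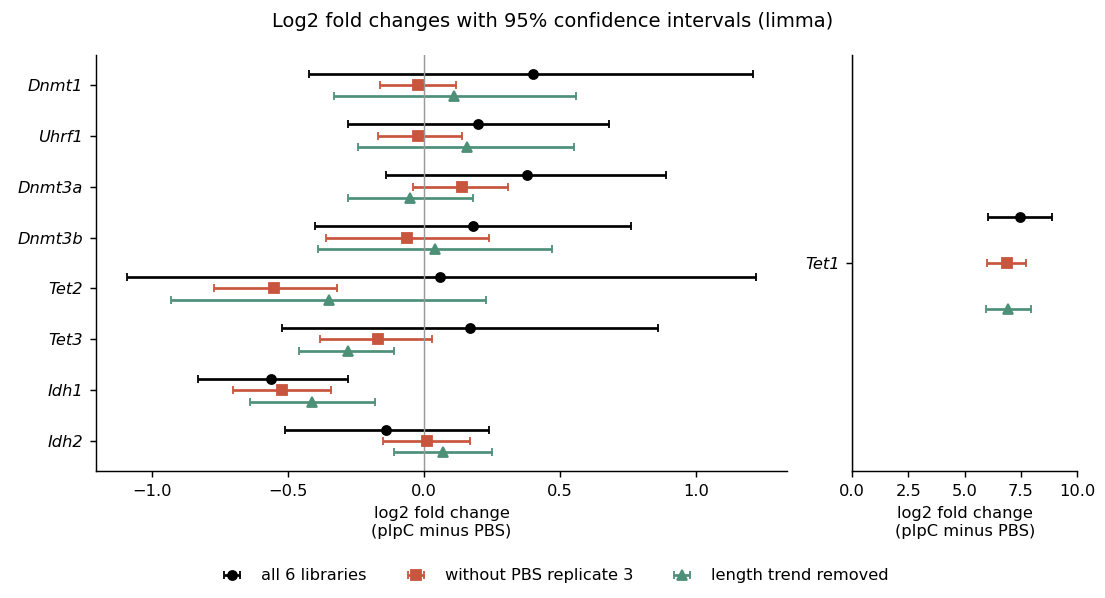
Log2 fold change (horizontal axis, pIpC minus PBS; Tet1 on a scale of its own at the right) of the 9 genes with 95% confidence intervals from limma, for all 6 libraries (black), without PBS replicate 3 (red) and with the transcript length trend removed (green). The intervals of Tet1 and Idh1 exclude 0 in all 3 fits, that of Tet2 only without PBS replicate 3, and that of Tet3 only with the length trend removed.

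How PBS replicate 3 differed bears on most of the 9 genes, since 7 were lower in it than in the other PBS libraries. In genes whose longest annotated transcript was under 1000 bases, the median log2 difference of PBS replicate 3 from the mean of PBS replicates 1 and 2 was 0.92 (1887 genes), and in genes of 8000 bases or more it was -0.96 (704 genes). Between PBS replicates 1 and 2 the medians of the length bins ran only from -0.03 to 0.06. The longest transcripts of Tet2 (9179 bases), Tet3 (10904 bases) and Dnmt3a (9685 bases) fall in the longest bin, and their differences in PBS replicate 3 were -1.83, -1.03 and -0.72. Dnmt1 (5870 bases, -1.25), Uhrf1 (3586 bases, -0.65), Dnmt3b (4320 bases, -0.72) and Tet2 were further down than the median of their bins, which were -0.52, -0.07, -0.32 and -0.96. The shorter Idh1 (2302 bases, 0.11) and Idh2 (1790 bases, 0.44) lay near their bins, at 0.22 and 0.63. What set this library apart was not tested.

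**Figure D4:**
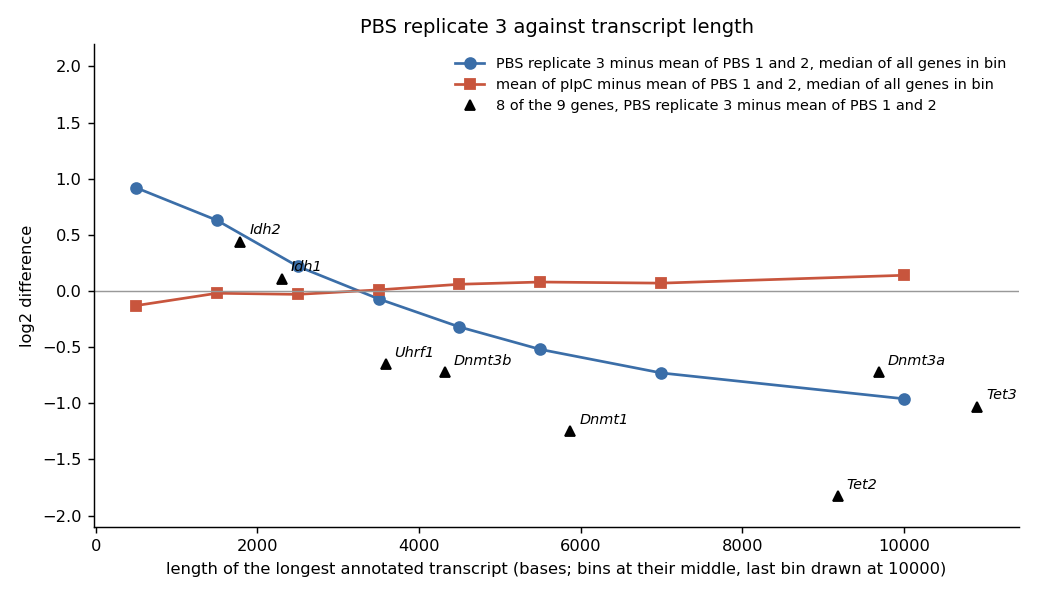
Log2 difference (vertical axis) against the length of the longest transcript (horizontal axis, bases): medians over all genes tested in each length bin for PBS replicate 3 (blue) and for the libraries labelled pIpC (red), each minus the mean of PBS replicates 1 and 2, and 8 of the 9 genes in PBS replicate 3 (triangles; Tet1, with 0 reads there, is left out). The blue line falls from 0.92 to -0.96 while the red one stays between -0.13 and 0.14. Dnmt1, Uhrf1, Dnmt3b and Tet2 lie furthest below the blue line.

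Beyond the 9 genes, 59 genes that serve the same cycle were read from role lists, of which 54 were tested. Of these, 9 were higher and 10 lower past the threshold (35.2%, against 45.3% of all genes), with a median log2 fold change of 0.02. Without PBS replicate 3, 13 were higher and 18 lower, where 65.1% of all genes passed. The counts of the single lists below stand against the same shares of all genes, 45.3% and 65.1%.

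Of 10 partners of the writers that were tested, 2 were higher and 2 lower. When PBS replicate 3 was left out, 2 were higher and 5 lower, with Hells, Uhrf2 and Setd2 added, and the median log2 fold change went from 0.06 to -0.16. Dnmt3l, which has no catalytic activity of its own and stimulates the de novo enzymes, had normalized counts of 353.9, 351.2 and 768.4 in PBS and 43.9, 70.5 and 42.5 in the libraries labelled pIpC. All PBS libraries were above the others, with the highest value in PBS replicate 3. Dnmt3l fell by 3.14 on the log2 scale (SE 0.37, limma adjusted p = 0.000834), and by 2.77 without PBS replicate 3. Usp7, a deubiquitinase that acts on DNMT1 and UHRF1, rose by 0.68 (limma adjusted p = 0.0347), Cdca7, which brings the remodeler HELLS to chromatin, rose by 0.39, and Trim28, a corepressor of transposons, had a log2 fold change of -0.52 (-0.34 without PBS replicate 3). Hells was at 0.03 and Uhrf2 at -0.05, short of the threshold, but both passed as lower without PBS replicate 3, at -0.25 (limma adjusted p = 0.0126) and -0.23 (limma adjusted p = 0.0352).

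Of 8 genes listed with the methyl-CpG readers, 2 were higher and 1 lower. Without PBS replicate 3, 2 were higher and 2 lower, with Mbd1 added at -0.41. Zbtb4, a zinc finger repressor, had normalized counts of 662.8, 576.9 and 401.7 in PBS and 91.8, 96.0 and 97.7 in the libraries labelled pIpC, and the groups did not overlap. The log2 fold change was -2.48 (SE 0.22, limma adjusted p = 0.000231). Mbd2, a reader that recruits a corepressor complex, rose by 0.52, whereas Zbtb33, which had the largest upward log2 fold change of the list at 0.73, did not pass (limma adjusted p = 0.244) and was at 0.17 without PBS replicate 3.

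Of 12 tested TET partners and repair genes, 3 were higher and 3 lower. Cxxc5, a CpG-binding protein that interacts with TET2, had normalized counts of 5.19, 5.06 and 10.2 in PBS and 194.6, 236.0 and 260.1 in the libraries labelled pIpC. Its log2 fold change was 4.94 (SE 0.33, limma adjusted p = 7.89e-05). Gadd45g, a stress-induced gene, rose from 49.7 ± 14.8 to 410.2 ± 32.2 (SD, n = 3), and Neil3, a DNA glycosylase, rose by 0.58 (0.37 without PBS replicate 3). Gadd45b fell by 0.82 (limma adjusted p = 0.0326), as did the uracil glycosylase Ung, and the abasic site endonuclease Apex1 fell by 0.60. Tdg, the glycosylase that removes the oxidised bases made by the TET enzymes, was at 0.13 and did not pass (limma adjusted p = 0.498). Cxxc4, Neil2 and Wt1 had too low a mean to be tested. Wt1, whose protein can bring TET2 to DNA, had 59 reads over the PBS libraries and 0 in those labelled pIpC, which makes it at least 6.32-fold higher in PBS against a floor of 3 reads per library. Wt1 was singled out after its values were seen.

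Of 8 tested genes of the methyl donor cycle, 2 passed, both as lower, and without PBS replicate 3 Mtr, methionine synthase, also passed as lower at -0.39. Mtrr, which reactivates methionine synthase, had normalized counts of 695.6, 727.8 and 553.4 in PBS and 284.4, 305.5 and 273.7 in the libraries labelled pIpC. The groups did not overlap, and its log2 fold change was -1.18 (SE 0.16, limma adjusted p = 0.00139). Ahcy, which clears S-adenosylhomocysteine, fell by 0.58. The synthases of S-adenosylmethionine, Mat2a and Mat2b, were both at -0.00, with standard errors of 0.11 and 0.12, and the largest log2 fold change upward, 0.37 in Ahcyl2, did not pass (limma adjusted p = 0.299).

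Of 16 enzymes of 2-oxoglutarate, succinate and 2-hydroxyglutarate, all tested, 2 were higher and 2 lower. These counts were 6 and 5 without PBS replicate 3, and the median log2 fold change went from -0.08 to 0.10. Bcat1, a branched-chain aminotransferase that consumes 2-oxoglutarate, had no read in any PBS library and normalized counts of 21.0, 28.6 and 52.2 in the libraries labelled pIpC (limma adjusted p = 0.000281), at least 11.3-fold higher against a floor of 3 reads per PBS library. Got2, a mitochondrial aminotransferase, rose by 0.40. Fumarate hydratase Fh1 fell by 0.81 (limma adjusted p = 0.0577), with 2715 in PBS replicate 3 and 1394 and 1426 in the other PBS libraries, and fell by 0.49 without PBS replicate 3. D2hgdh, which clears D-2-hydroxyglutarate, fell by 0.48. The subunits of the mitochondrial NAD-dependent isocitrate dehydrogenase, Idh3a, Idh3b and Idh3g, had log2 fold changes of -0.23, -0.06 and -0.26 and did not pass (limma adjusted p = 0.276, 0.853 and 0.313). Idh3b turned sign without PBS replicate 3 and passed as higher, at 0.19 (limma adjusted p = 0.0715).

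**Figure D5:**
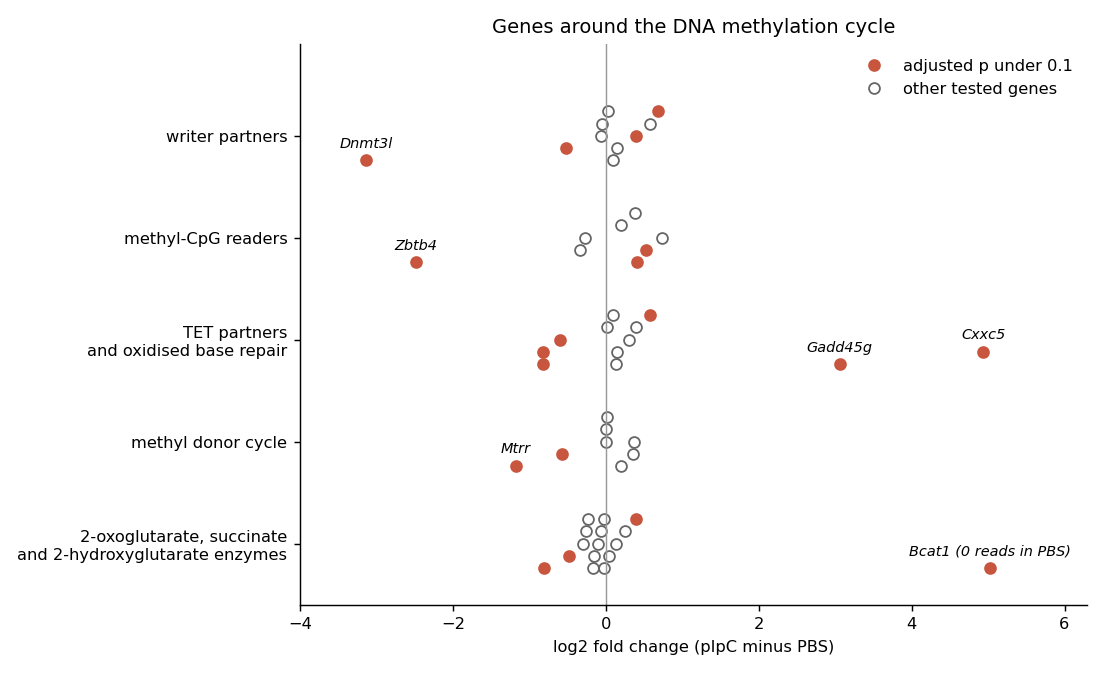
Log2 fold change (horizontal axis, pIpC minus PBS) of the 54 tested genes in 5 role lists (vertical axis; the height within a list only separates points), filled where the adjusted p was under 0.1 and labelled beyond a log2 fold change of 1 in size. Dnmt3l at -3.14 and Zbtb4 at -2.48 lie farthest to the left and Cxxc5, Gadd45g and Bcat1 to the right; the fitted value of Bcat1, with 0 reads in PBS, depends on the pseudocount.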

How the data were processed

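Poly(A) RNA of 6 samples (3 PBS, 3 pIpC, grouped by the sample titles) was measured by RNA-seq. The authors deposited 1 table of normalized counts, treated here as a signal, 1 size factor per library. The methods of the study name nf-core/rnaseq with STAR and RSEM on mm10, whereas the submitters' processing notes name HISAT2 (version 2.2.1), SAMtools, featureCounts, Subread and edgeR on GRCm38. Which of these made the table was not given in the sources used here. All values above 0 (100%) were whole multiples of 1 read within 0.02, so whole reads were recovered. No pooled, unused or comparison column was present.

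Symbols, positions and transcript lengths came from GENCODE M21 (GRCm38), and 55141 of 55487 identifiers had a symbol. Promoter sequences were from RefSeq. limma (version 3.58.1, R 4.3.3) with an intensity trend was fitted to log2(normalized count + 1) of genes with a mean of at least 10, without a replicate block, and p-values were Benjamini-Hochberg adjusted over the 15020 genes, at 0.1. Genes with a mean below 10 in PBS could be tested through the libraries labelled pIpC alone, as were Tet1, Cxxc5 and Bcat1. Scripts were tested on simulated data. The exact interval of the Tet1 ratio and the floors (3 reads) cover counting error only. The other intervals are from limma and reflect the spread between libraries. Deviations from the group mean, correlated between libraries of equal number, gave -0.117, 0.143 and 0.0405, so no pairing was used.

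The 9 genes and all lists were chosen with earlier results of these data known. Named were the 9 genes, the largest rise and fall of each role list, Brd9, the 3 genes most like Tet1 and like Idh1, markers by list, and other called list members as examples. Alternatives were other pseudocounts (0.1 and 10), filters, normalizations, DESeq2 (version 1.42.0) and edgeR (version 4.0.16) on recovered reads, a replicate block, an adjusted p under 0.05, removal of length trends, and each library left out. Values of some list members are not reported here.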

Additional observations from a re-analysis of the deposited data

How the results depend on the processing

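Over 198 comparisons of the 9 genes with 22 alternatives, 174 kept the direction and the side of the threshold and 24 changed sign. Tet1 and Idh1 kept both under each alternative run. Tet2 was at -0.16 with edgeR, -0.147 with DESeq2 and -0.051 with quantile normalization, under which the median of all genes was -0.12, with 3244 genes called higher and 4078 lower. With the length trend removed, alone or with the replicate block, Dnmt3a was at -0.0508, Tet2 at -0.348, Tet3 at -0.284 and Idh2 at 0.0724, and Tet3 passed as lower. With PBS replicate 3 left out as well, chosen after seeing the data, Dnmt1 was at -0.107, Uhrf1 at -0.0314, Dnmt3b at -0.115, Tet2 at -0.65, Tet3 at -0.283 and Idh2 at 0.0614, and 4 of the 9 genes passed in place of 2. The cause of these changes was not tested.

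With each library left out in turn, Dnmt1 ranged from -0.0232 to 0.62, Uhrf1 from -0.0156 to 0.347, Dnmt3b from -0.0596 to 0.387, Tet2 from -0.545 to 0.387, Tet3 from -0.174 to 0.359 and Idh2 from -0.219 to 0.0114. Without PBS replicate 3, 9783 genes passed and without pIpC replicate 2, 4650. Of the 9 genes, 2 or 3 passed in these fits. No replicate pairing was found, and under the replicate block 6095 genes changed and no call among the 9 genes did, with Tet1 at 7.45 (limma adjusted p = 0.000531) and Idh1 at -0.557 (limma adjusted p = 0.0532). edgeR called 6901 genes and DESeq2 7451, against 5367 at an adjusted p under 0.05 in limma. Counting depth limits Tet1 in PBS, where 6 reads were counted, and the spread of PBS replicate 3 limits the writers.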
